A study of Mus musculus with 3 samples.

Results

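The suppressor of cytokine signalling (SOCS) family comprised 8 of the 49997 genes of the count table, Socs1 to Socs7 and Cish, picked out by gene symbol. They were listed as known targets of mRNA decay through N6-methyladenosine that restrain signalling by leukemia inhibitory factor through STAT3. A tie to that RNA mark was thus part of the choice. RIP-seq, which sequences the RNA that comes down with a protein, had been run with an antibody to YTHDF2 in E14 mouse embryonic stem cells (ESCs) grown with leukemia inhibitory factor (LIF) and treated with doxycycline (Dox) for 24 h. The 3 libraries were 1 input (total RNA) and 2 YTHDF2 IP replicates, and all of them came from Dox-treated cells. As the study describes them, these cells carry a Dox-inducible Dux transgene and a tdTomato reporter driven by the MERVL promoter, so the values belong to ESCs in which part of the population was being driven to a 2-cell-like (2C-like) state. A cell state without Dox and an IP with a control antibody were not analysed here.

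SOCS proteins form a feedback loop on cytokine receptors. Cytokines such as LIF bind a receptor built on gp130, JAK kinases phosphorylate STAT proteins, the STATs switch on SOCS genes, and the SOCS proteins then bind the receptor or the kinase through an SH2 domain and bring in a ubiquitin ligase through their SOCS box. In mouse ESCs the LIF-STAT3 arm holds the cells in self-renewal. YTHDF2 is a cytoplasmic reader of N6-methyladenosine (m6A) on mRNA and brings bound transcripts to decay machinery, and in T cells m6A on Socs1, Socs3 and Cish has been linked to their decay. Methylation itself was not measured in these libraries.

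m6A is laid down mainly at a short consensus around an A followed by C, often near the stop codon, so the 29-base stretches around such sites are given for 5 of the 8 members. The first 4 hold GGACT, the most favoured form, and are the GGACT sites nearest to the stop codon of Socs3, Cish and Socs2, with a second site for Cish. The last 2 are the GGACC sites nearest to the stop codon of Socs1, which has no GGACT, and of Socs4, whose GGACT sites lie far from the stop. Each runs 5′ to 3′ on the transcript strand in DNA letters, from the RefSeq annotation of GRCm38.p6 (mm10), with the motif in capitals.
Socs3: caacggccacctGGACTcctatgagaaag
Cish, in the coding sequence: ggtggccgacgtGGACTgcctacccctgc
Cish, in the 3′ UTR: cagtccccagctGGACTtggggttctgct
Socs2: ggtacgatctggGGACTgcctttaccaac
Socs1: tgtctggggccaGGACCtgaattccactc
Socs4: ggaacactataaGGACCccagtgcctgta
The Socs3 stretch is chr11:117967612-117967640 on the minus strand, and its A is at −71 when bases are counted from the start of the stop codon. The Cish stretches are chr9:107300825-107300853 and chr9:107300952-107300980 on the plus strand, with the A at −59 and at 68. The Socs2 stretch is chr10:95412696-95412724 on the minus strand with the A at −55. The Socs1 stretch, chr16:10783972-10784000 on the minus strand, sits in the 3′ UTR with the A at 249, and the Socs4 stretch, chr14:47290683-47290711 on the plus strand, sits in the coding sequence with the A at −221.

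All 8 genes are protein coding and had the same start and end in the table and in GRCm38.p6. Socs1 (chr16:10783808-10785536, minus strand), Socs3 (chr11:117966079-117970336, minus strand), Socs4 (chr14:47276920-47296102, plus strand), Socs5 (chr17:87107278-87137647, plus strand) and Socs6 (chr18:88865169-88894364, minus strand) each carry their whole coding sequence in 1 exon, as 7.34% of the 15188 tested protein-coding genes with a RefSeq transcript do. Socs2 (chr10:95383903-95417321, minus strand) has 2 coding exons, Cish (chr9:107296659-107302784, plus strand) has 3, and Socs7 (chr11:97362292-97398542, plus strand) has 9. The proteins fall into a short set of 198 to 257 residues (Socs2, Socs1, Socs3 and Cish) and a set with long N-terminal regions of 436 to 648 residues (Socs4, Socs6, Socs5 and Socs7). The 3′ UTRs range from 425 bases in Socs1 to 5184 bases in Socs7.

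**Figure D1:**
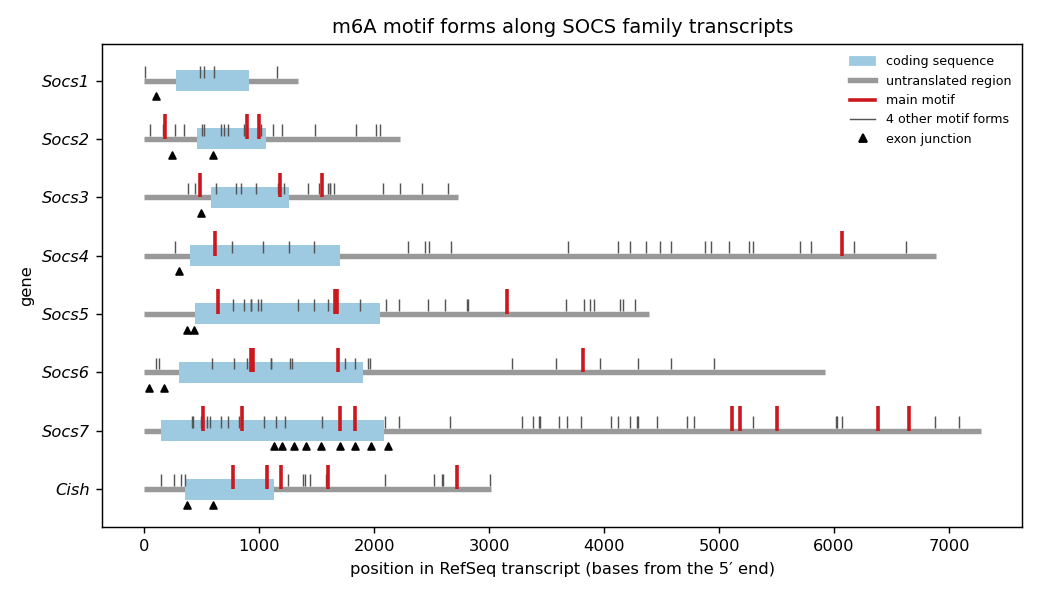
RefSeq transcripts of the 8 SOCS family genes drawn to scale in bases from the 5′ end, with coding sequence in blue, untranslated regions in grey, exon junctions as triangles, GGACT sites as tall red ticks (the main motif) and 4 other motif forms as short grey ticks. Socs1 has no red tick, Socs7 has 9, and every junction of Socs1, Socs3, Socs4, Socs5 and Socs6 lies before the coding sequence.

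GGACT occurred 0 times in the Socs1 transcript, 2 times in Socs4, 3 times each in Socs2 and Socs3, 4 times each in Socs5 and Socs6, 5 times in Cish and 9 times in Socs7. It is a common word, present in 91.3% of the tested protein-coding transcripts and in 82.5% of the 904 transcripts within 10% of the length of Socs1. Within 400 bases of the start of the stop codon Cish had 3 GGACT sites, Socs2, Socs3, Socs5 and Socs7 had 2 each, Socs6 had 1, and Socs1 and Socs4 had none, against 58.6% of all transcripts with at least 1 there. When the forms GGACA and GGACC and the forms AGACT and GAACT were added and only the transcript strand was read, the count was 5 in Socs1 and 19 to 45 in the other members, and 99.7% of all transcripts held at least 1 of the 5 forms. These are matches of letters, and the Socs1 transcript, without GGACT, was the most enriched member below.

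Sequencing depth was close to even, with 36986994, 35259827 and 35888743 counts in the input and IP replicates 1 and 2. ESC markers such as Pou5f1, Sox2 and Nanog were abundant, with the 7 markers summing to 8067, 7924 and 7910 CPM (counts scaled to a library of one size), and 0 of them differed between IP and input by over 2-fold at an adjusted p under 0.05 by edgeR, also at an unadjusted p under 0.05 and by DESeq2, where 15.0% of all tested genes were higher and 13.0% lower by that edgeR rule. At any fold 3 of the 7 were higher, up to 0.83 on the log2 scale in Sox2, and 3 were lower, down to −0.82 in Dppa5a. Of all tested genes, 28.4% were higher and 28.9% lower at any fold. The 4 markers of the 2C-like state had an input sum of 1718 CPM and IP sums of 2665 and 2672 CPM. They did not move alike: Zscan4c was enriched (log2 fold change 1.14 ± 0.05, SE; adjusted p = 2.58e-21), Zscan4d (0.41) and Tcstv1 (0.75) were higher by less than 2-fold, and Usp17la stood at −0.02. Of the feeder fibroblast markers, Col3a1 had 0 counts in every library and Col1a2 had 4 to 7, while the 2 tested ones, Col1a1 and Thy1, summed to 30.2, 15.4 and 16.5 CPM, of which Thy1 made up 28.1, 13.8 and 14.8 CPM. The 3 tested markers of endoderm and trophoblast, Gata6, Sox17 and Eomes, summed to 31.8, 61.9 and 56.7 CPM, of which Eomes, called enriched by DESeq2 but not by edgeR (1.98-fold), made up 26.1, 52.4 and 50.9 CPM, and the fourth, Cdx2, had 2, 8 and 4 counts. In bulk RNA such as this, fewer cells expressing a gene and less of its RNA per cell cannot be told apart, and whether any of these shifts bears on the values below was not tested.

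To ask which SOCS transcripts were over-represented with YTHDF2, both IP replicates were compared with the input by edgeR's quasi-likelihood test, with Benjamini-Hochberg adjustment over the 19601 genes that passed a filter on low counts. IP values are given with replicate 1 before replicate 2. A gene was called enriched or depleted at an adjusted p under 0.05 and a fold change over 2. All 8 members passed the filter, and none had fewer than 103 counts in any library. Socs1, Socs3 and Cish were enriched and 0 members were depleted. That is 3 of 8, where 15.0% of all tested genes were enriched and 13.0% depleted. Without the fold threshold, 6 of the 8 were higher in IP and 0 were lower, against 28.4% and 28.9% of all tested genes. At an unadjusted p under 0.05, 1 member, Socs4, was lower. DESeq2 found 2 members enriched, 5 higher, 0 lower and 0 depleted. Of the 27890 genes it fitted, 2344 were enriched and 1936 depleted, and 8334 differed in either direction at any fold. The median log2 fold change was 0.89 over the members and 0.01 over all tested genes. Over tested protein-coding genes with 1 coding exon, the class of 5 members, it was 0.81, and 36.3% were enriched. With 2 coding exons, the class of Socs2, it was 0.78, and 34.9% were enriched. It was 0.28 in the class of Cish and −0.07 in that of Socs7. Since the input is a single library, these p-values measure only the spread between the 2 IP libraries, which nothing in the labels says came from separate cultures.

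The members together took 12583 input counts against 28392 and 28355 IP counts. Their share of all counts was 0.0340% in the input, with a 95% Wilson interval from 0.0334% to 0.0346%. The share reached 0.0805% (0.0796% to 0.0815%) and 0.0790% (0.0781% to 0.0799%) with YTHDF2. Both IP libraries stood above the input and close to each other. These intervals cover counting error only, and since both mates of a read pair were counted, they are narrower than counts of molecules would give.

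**Figure D2:**
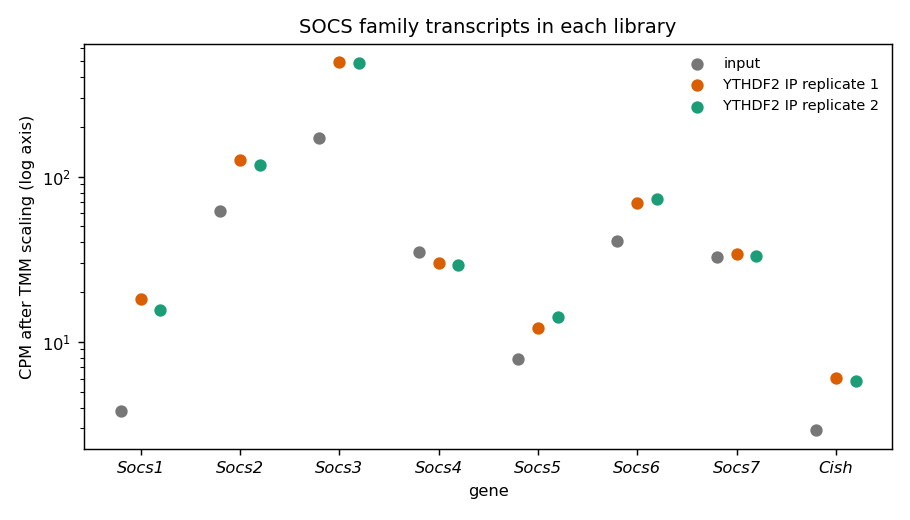
CPM after TMM scaling (log axis) of each SOCS family gene in the input (grey), YTHDF2 IP replicate 1 (orange) and IP replicate 2 (green). The IP points lie above the input point for Socs1, Socs2, Socs3, Socs5, Socs6 and Cish, beside it for Socs7 and below it for Socs4.

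Socs3 and Socs1 encode the members that carry a kinase inhibitory region and block JAK kinases directly. Socs3, the main brake on gp130 and thus on LIF signalling, had 6054 input counts against 17719 and 17792 IP counts. As CPM this was 171 in the input and 488 ± 3.61 in IP (SD, n = 2). The IP replicates differed from each other by far less than from the input, and the fitted log2 fold change was 1.51 ± 0.06 (SE), or 2.85-fold (adjusted p = 4.06e-23). With the dispersion fixed at 0.1, a far wider spread between replicates than the libraries showed, its adjusted p was 0.0649. Its share of all SOCS family counts was 48.1% before IP and 62.4% and 62.7% after it, so it was the most abundant member on both sides.

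Socs1, the strongest brake on interferon signalling, was the member with the highest fold change. It had 135 input counts against 653 and 570 IP counts, which was 3.82 CPM against 16.8 ± 1.79 CPM (SD, n = 2). Both IP libraries were above the input, and IP replicate 1 was the higher of them. The log2 fold change was 2.14 ± 0.20 (SE), or 4.41-fold (adjusted p = 4.28e-12), higher than in 94.3% of all tested genes. It passed the call rule in all 9 alternatives with a test. Socs1 was a scarce transcript nonetheless, at 1.07% of the family's input counts and 2.30% and 2.01% of its IP counts.

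Cish and Socs2 encode the members that bind phosphorylated receptors and hold back STAT5 signalling, Socs2 above all at the growth hormone receptor. Cish was the least abundant member, with 103 input counts against 218 and 211 IP counts. Both IP libraries were above the input and close to each other. The log2 fold change of 1.02 ± 0.28 (SE; adjusted p = 0.00205) lay just past the 2-fold line, and with its SE it is not separated from that line. Under DESeq2 its log2 fold change was 1.04 with an adjusted p of 0.065, and without IP replicate 1 the value was 0.98, under the 2-fold line.

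Socs2 had 2198 input counts against 4575 and 4314 IP counts, or 62.2 CPM against 122 ± 6.33 CPM (SD, n = 2). IP replicate 1 was on one side of the 2-fold line and IP replicate 2 on the other, at log2 ratios of 1.03 and 0.92. The fitted value, 0.98 ± 0.08 (SE; 1.97-fold, adjusted p = 6.84e-14), fell just short of the fold threshold, so Socs2 was higher in IP but not called enriched. Cish and Socs2 were thus on opposite sides of the call with log2 fold changes that differed by less than the SE of Cish.

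**Figure D3:**
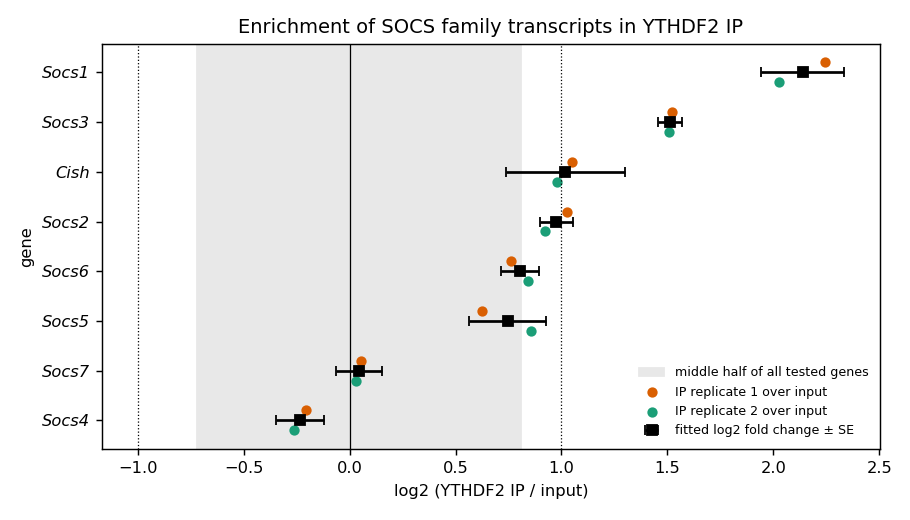
Log2 ratio of YTHDF2 IP to input for the 8 SOCS family genes, ordered by the fitted value (squares, bars are ± SE), with the ratio of each IP replicate to the input as coloured points, the 2-fold lines dotted and the interquartile range of all tested genes in grey. Socs1 and Socs3 lie clear of the 2-fold line, Cish and Socs2 on it, Socs6 and Socs5 between 0.75 and 0.80, and Socs7 and Socs4 near 0.

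Among the long members, Socs6 and Socs5 were higher in IP by less than 2-fold. Socs6, an adaptor that binds the receptor KIT and insulin receptor substrates, had 1434 input counts against 2482 and 2665 IP counts, a log2 fold change of 0.80 ± 0.09 (SE; adjusted p = 6.54e-10). Socs5, linked to the EGF receptor, had 277, 436 and 520 counts in the same order, with a log2 fold change of 0.75 ± 0.18 (SE; adjusted p = 0.000576). Its 2 IP replicates were the farthest apart of all members, at log2 ratios of 0.62 and 0.86, and both were above the input. Its exons overlap those of Gm30510 on the opposite strand by 70 bases, 0.709% of its exonic length, and Gm30510 had 2, 0 and 0 counts.

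Socs7 and Socs4 did not pass the test in this fit. Socs7, a nuclear and cytoplasmic adaptor of insulin signalling, had 1151 input counts against 1221 and 1219 IP counts. Its log2 fold change was 0.04 ± 0.11 (SE; adjusted p = 0.759), and 2 SE to either side reached from −0.18 to 0.26, short of a 2-fold difference on either side. Socs4, also linked to the EGF receptor, had 1231 input counts against 1088 and 1064 IP counts. It was the single member with both IP libraries under the input, at a log2 fold change of −0.23 ± 0.11 (SE; adjusted p = 0.0711). Its direction rested on the fit, since it was higher in IP with the trend on GC content removed (0.50, adjusted p = 0.00028) and lower with the trend on exon density removed (−0.43, adjusted p = 0.00122).

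The short members thus held the 4 highest log2 fold changes (0.98 to 2.14) and the long members the 4 lowest (−0.23 to 0.80). This split was drawn after the values were seen and is given as a description, and it did not hold with the trend on GC content removed (described below), where the long members Socs6 (1.43) and Socs5 (0.92) stood above the short members Socs1 (1.32) and Cish (0.79) respectively. Taking 2 SE to either side, Socs1 (from 1.75) stood clear of Socs3 (to 1.63), and Socs3 (from 1.40) clear of Socs2 (to 1.13) but not of Cish (to 1.58). These SEs rest on the spread between the 2 IP libraries alone. Socs1 and Socs3 overlapped under DESeq2 (2.16 ± 0.30 and 1.53 ± 0.06, SE). They also overlapped with the GC trend removed (1.32 ± 0.19 and 0.95 ± 0.06, SE), where Socs3 lay below Socs2 (1.07 ± 0.08, SE). In the fit above, Cish, Socs2, Socs6 and Socs5 overlapped each other, Socs5 (from 0.38) lay clear of Socs7 (to 0.26), and Socs7 and Socs4 overlapped. Under DESeq2, Socs5 (0.76 ± 0.30, SE) and Socs7 (0.06 ± 0.17, SE) overlapped. With the GC trend removed, Socs4 (0.50 ± 0.11, SE) lay clear of Socs7 (−0.19 ± 0.11, SE), and Socs6 (1.43 ± 0.09, SE) clear of Socs2.

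Counts grow with transcript length, so levels between members were compared as CPM per kb of RefSeq transcript. In the input the order was Socs3 (62.7), Socs2 (28.0), Socs6 (6.85), Socs4 (5.05), Socs7 (4.47), Socs1 (2.85), Socs5 (1.78) and Cish (0.966). In IP replicate 1, Socs3 (179.7) and Socs2 (57.0) again led, and Socs1 (13.5) had moved past Socs6 (11.6), Socs7 (4.65) and Socs4 (4.38). In IP replicate 2 Socs6 (12.3) was ahead of Socs1 (11.6), so their order is within the spread of the IP replicates. Socs7 (4.58) and Socs4 (4.22) had changed places between input and both IP libraries. Over the merged exons of the table, which are 11867 bases for Socs2 against a transcript of 2222, Socs2 would stand at 5.24 CPM per kb in the input, so its place depends on which exons are used.

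Transcripts differed in base composition along with enrichment. The exons of Socs1 and Socs3 have a GC content of 64.1% and 60.1%, higher than 99.3% and 95.1% of tested protein-coding genes, and those of Socs4 and Socs6 have 38.5% and 40.3%, in the lowest 1.75% and 4.64%. Cish (54.4%), Socs7 (54.5%), Socs2 (48.3%) and Socs5 (47.1%) lie between. Over all tested protein-coding genes, 38.6% of the 780 genes with at least 60% GC were enriched, against 4.83% of the 601 genes under 40% and 5.33% of the 2628 genes from 40% to 45%. Among genes of their own GC class, the log2 fold change of Socs6 was higher than 90.1%, that of Socs1 than 86.6%, that of Socs2 than 86.0%, that of Socs5 than 80.5%, that of Cish than 79.3%, that of Socs3 than 72.5%, that of Socs4 than 68.1% and that of Socs7 than 45.9%.

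When the trend of fold change with GC was removed across all genes, 3 members were again enriched, as were 2750 of the 19552 genes fitted. Only Socs1 (log2 fold change 1.32) was among both sets of members. Socs6 (1.43) and Socs2 (1.07) took the place of Socs3 (0.95) and Cish (0.79), and Socs4 stood at 0.50 in place of −0.23. The order of the members in IP therefore depends on whether base composition is allowed for, and what part it had in the enrichment was not tested. Exon structure moved with enrichment as well: of the 1115 genes with 1 coding exon 36.3% were enriched, against 13.6% of the 4219 genes with 6 to 10, the class of Socs7. Within the class of 1 coding exon, Socs1 stood above 86.7% of genes, Socs3 above 72.3%, Socs6 above 49.8%, Socs5 above 47.6% and Socs4 above 19.2%. With the trend on exon density removed, where 2965 of 19552 genes were enriched, Socs1 (2.00) and Socs3 (1.33) were called and Cish (0.84) was not.

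**Figure D4:**
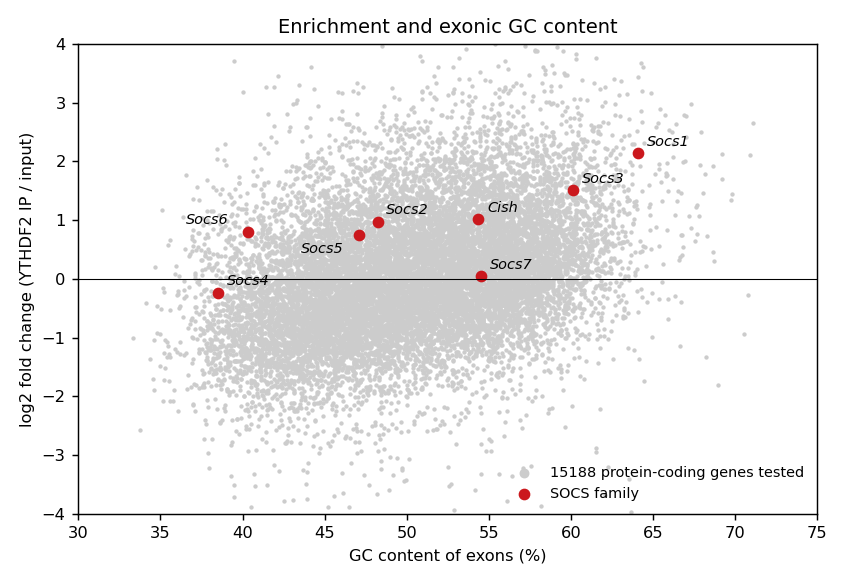
Log2 fold change (YTHDF2 IP over input) against the GC content of exons (%) for 15188 tested protein-coding genes (grey; 141 lie beyond the plotted range) and the 8 SOCS family genes (red). Socs1 and Socs3 sit at the GC-rich end where fold changes were higher, Socs4 and Socs6 at the GC-poor end, and Socs6 lies above 90.1% of genes of its GC class.

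The rest of the pathway was read from lists of genes by role. In the receptor and transducer list (Lif, Lifr, Il6st, 4 JAK kinases and 7 STATs), 2 of 14 (14.3%) were enriched and 1 (7.14%) was depleted, near the 15.0% and 13.0% of all tested genes, and the median log2 fold change was −0.03. The ligand gene Lif had 144 input counts against 337 and 392 IP counts (log2 fold change 1.30 ± 0.22, SE; adjusted p = 4.41e-06). Il6st, which encodes gp130, had 3864 input counts against 8648 and 9071 IP counts (1.16 ± 0.06, SE; adjusted p = 2.95e-18). Both IP replicates were above the input for each of these genes. Lifr, the partner of gp130 in the LIF receptor, had 3372 input counts against 3000 and 3067 IP counts (−0.19 ± 0.07, SE; adjusted p = 0.0243).

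Transcripts of the transducers lay on both sides. Stat3, the transcription factor of the LIF signal, had 3608 input counts against 1730 and 1853 IP counts, and was depleted (−1.05 ± 0.08, SE; adjusted p = 2.55e-14). Jak1, a kinase bound to gp130, had 2231 input counts against 1124 and 1309 IP counts, lower by less than 2-fold (−0.92 ± 0.10, SE; adjusted p = 4.60e-10). Of the other kinases, each changed by less than 2-fold, Jak2 (0.53 ± 0.14, SE; adjusted p = 0.00135) and Tyk2 (0.25 ± 0.09, SE; adjusted p = 0.0153) were higher in IP and Jak3 (−0.21 ± 0.09, SE; adjusted p = 0.0411) was lower.

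Of 10 other brakes on JAK-STAT signalling (tyrosine phosphatases, PIAS proteins, Sh2b3 and Cbl), 0 were enriched, also at an unadjusted p under 0.05 and by DESeq2, and 2 (20%) were depleted, against 15.0% and 13.0% of all tested genes, with a median of 0.04. With 10 genes these counts are near the background. The depleted ones were the phosphatase genes Ptpn2 (−1.06 ± 0.10, SE; adjusted p = 5.70e-12) and Ptpn6 (−1.33 ± 0.17, SE; adjusted p = 1.13e-08). Among 6 genes of the ubiquitin ligase that SOCS boxes recruit, 1 (16.7%, against 15.0% of all tested genes) was enriched and 0 were depleted by edgeR, also at an unadjusted p under 0.05 and by DESeq2. It was Ube2f (1.08 ± 0.09, SE; adjusted p = 2.19e-13), the conjugating enzyme that places NEDD8 on CUL5. The list's median was −0.08, near that of all genes.

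Of 11 STAT3 target genes in ESCs, 3 (27.3%) were enriched and 1 (9.09%) was depleted, against 15.0% and 13.0% of all tested genes, with a median of 0.52. Gbx2, a homeobox factor downstream of LIF, had 1044 input counts against 3592 and 3457 IP counts (1.72 ± 0.09, SE). The kinase gene Pim3 (2.82-fold) and Junb, a subunit of AP-1 (2.77-fold), were enriched to about the level of Socs3, itself a STAT3 target. Klf5, a pluripotency factor, was depleted, with 7013 input counts against 1661 and 1554 IP counts (−2.17 ± 0.07, SE). The adjusted p of these 4 genes was at most 2.02e-17.

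Proteins outside the SH2 family also carry a SOCS box. Of 27 such genes, 20 passed the filter on low counts, and 9 of these (45%) were enriched and 2 (10%) depleted, against 15.0% and 13.0% of all tested genes. The median log2 fold change was 1.03, but Asb4 and Asb14 had under 10 input counts and passed the filter through IP libraries alone, and over the other 18 genes it was 0.83. The enriched ones were Asb2, Asb8 and Asb16, which carry ankyrin repeats, Spsb2, Spsb3 and Spsb4, which carry SPRY domains, and Wsb2, Rab40c and Neurl2, with log2 fold changes from 1.01 in Spsb3 to 2.32 in Spsb2. Asb2 (2.15 ± 0.52, SE) rested on 17 input counts, the fewest of the 9. Spsb2, an adaptor known for the turnover of inducible nitric oxide synthase, had 77 input counts against 383 and 407 IP counts. Wsb1 (−1.44 ± 0.07, SE), with 6890 input counts against 2657 and 2582 IP counts, and Asb3 (−1.04 ± 0.20, SE) were depleted, although Wsb1 and Wsb2 are close relatives.

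Finally, of 16 receptors and adaptors that SOCS proteins restrain, 15 were tested, 3 (20%) were enriched and 1 (6.67%) was depleted, near the 15.0% and 13.0% of all tested genes, with a median of 0.69, or 0.63 without Csf3r, which passed the filter through IP libraries alone. Ifnar1, a chain of the type I interferon receptor, had 2218 input counts against 6616 and 6412 IP counts (1.51 ± 0.07, SE; adjusted p = 1.99e-20). Il4ra (1.71 ± 0.34, SE; adjusted p = 4.75e-05) and the erythropoietin receptor gene Epor (1.35 ± 0.50, SE; adjusted p = 0.0204) rested on 50 and 26 counts in the input, and DESeq2 called 2 of the 3. Kit, which SOCS6 binds, had 11506 input counts against 4235 and 4062 IP counts (−1.51 ± 0.06, SE; adjusted p = 1.5e-22). Kit was thus far on the input side while Socs6 was on the IP side.

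**Figure D5:**
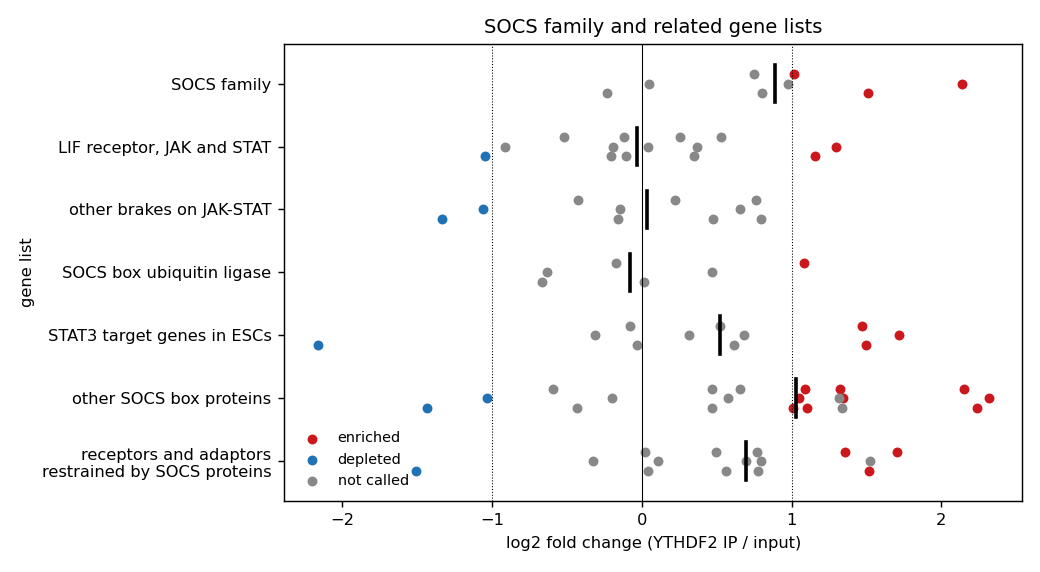
Log2 fold change (YTHDF2 IP over input) of each tested gene in the SOCS family and in 6 related gene lists, with enriched genes in red, depleted genes in blue, others in grey, a black bar at the median and dotted 2-fold lines. The median of the SOCS family lies at 0.89 and that of the other SOCS box proteins at 1.03 (0.83 without Asb4 and Asb14, which passed the low-count filter through IP libraries alone). Those of the receptors and adaptors (0.69) and the STAT3 target genes (0.52) lie between these and 0. Those of the receptor and transducer list (−0.03), the other brakes (0.04) and the ubiquitin ligase (−0.08) lie near 0.

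The genes whose 3 library values lay closest to those of the highest and lowest members were found by Euclidean distance of log2 CPM over the 3 libraries. For Socs1 these were Chrm4 (0.187), Lipt1 (0.199) and Prrx2 (0.208), with 131 to 150 counts in the input and 571 to 646 in IP. For Socs4 they were Spty2d1 (0.00878), Rad51ap1 (0.0536) and Nkapd1 (0.0634), with log2 fold changes from −0.28 to −0.23. With 3 libraries such closeness is shared by many genes of like abundance and is given as a description.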

How the data were processed

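RIP-seq libraries of Dox-treated E14 ESCs, 1 input and 2 YTHDF2 IP, were grouped by their sample titles. Per the study's methods the IP was made from cleared cell lysate, whereas the labels describe Trizol-extracted RNA used in the IP. Which was done, and whether the input came from whole cells or lysate, is not given in the sources used here. The submitters' processing notes name fastp 0.19.4, HISAT2 2.2.1, DESeq2 1.40.2 and mm10. The deposited values are raw counts per gene over RefSeq exons, for which the authors ran, per the file headers, featureCounts 2.0.3 in paired-end mode, each mate counted on its own and without strand. By that tool's defaults, reads mapping to several places or genes were left out. All columns belonged to these libraries. The study used DESeq2 at a fold change over 2.

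The counts were fitted with edgeR 4.0.16 under R 4.3.3. filterByExpr kept 19601 genes, which were scaled by TMM (factors 0.957, 1.02 and 1.02) and tested with glmQLFit and glmQLFTest, robust, with 1 residual degree of freedom. The common dispersion was 0.00538 (coefficient of variation 7.33%), and SEs were computed as the absolute log2 fold change over the square root of F. Fitted values use a prior count of 0.125 and single-library ratios add 0.5 to each count. DESeq2 1.42.0 was one of 11 alternatives, which also covered scaling, the low-count filter, dispersion, halved counts, GC and exon density trends, and leaving out either IP. The scripts were tested on simulated data. Motifs and GC came from GRCm38.p6 transcripts and exons in Python 3.11.15.

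Named genes were all members, every other listed gene past the call rule, Lifr, Il6st, Jak1, Stat3, and the 3 genes nearest to the highest and lowest members. Cell type markers were named as a check of the cells. Jak2, Jak3, Tyk2, Asb4, Asb14, Csf3r and Gm30510 were named after their values were seen. Members and lists were chosen with earlier results of these data known.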

Additional observations from a re-analysis of the deposited data

How the results depend on the processing

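No paired analysis was possible because there was 1 input library and its label bears no replicate number. With the dispersion fixed at 0.1, 1577 genes were enriched and 1531 depleted, of which 1358 and 1283 were among the 2936 and 2543 of the fit reported above, and 1 SOCS family member, Socs1, was enriched. Without either IP replicate no spread is left, so genes were counted past the fold threshold alone, which gave 3964 to 4062 enriched and 3700 to 3727 depleted genes, and 2 to 4 enriched members. Length-corrected (TPM) scaling raised the enriched genes to 3558 and lowered the depleted ones to 2003, a split of 64% enriched against 53.6%, with the median log2 fold change at 0.16 against 0.01. Socs2 was then called (log2 fold change 1.13), as it was under scaling to total counts (1.07), where 60.3% of calls were enriched, and without the low-count filter (1.00). The number of depleted members was 0 under every alternative. Over the 11 alternatives the log2 fold change ranged from 1.32 to 2.29 in Socs1, 0.95 to 1.66 in Socs3, 0.79 to 1.17 in Cish, 0.80 to 1.13 in Socs2, 0.62 to 1.43 in Socs6, 0.57 to 0.92 in Socs5, −0.19 to 0.20 in Socs7 and −0.43 to 0.50 in Socs4, so Socs7 and Socs4 alone took both signs, Socs4 being above 0 with the GC trend removed and Socs7 below 0 with the GC trend (−0.19) or the exon density trend (−0.10) removed. Cish lost its call with the dispersion fixed (adjusted p = 0.247), with either trend removed, and under DESeq2, and without IP replicate 1 its log2 fold change was 0.98, under the fold threshold. The cause of these changes was not tested.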
